A study of Sus scrofa with 6 samples.

Results

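Small nucleolar RNA (snoRNA) clusters were examined in pig liver after extended partial hepatectomy (ePHx), surgery in which most of the organ is taken out. A cluster is the unit the array reports, 1 value for a group of probes on 1 transcript. The members were the clusters whose Ensembl description gives the biotype snoRNA, 299 rows of the 25385 clusters tested. Of these rows, 57 fell into 28 sets with identical values on all 6 arrays, so that 270 members with distinct values remained when each set was counted once. The control group held 3 arrays from livers of male German landrace pigs that had ePHx and vehicle, and the MSC group 3 arrays from pigs that had the same resection and received porcine mesenchymal stromal cells from bone marrow, grown into hepatocyte-like cells before transfusion. The resection is thus shared by both groups, and no array of an unresected liver entered the comparison. According to the methods the 3 arrays of a group came from 3 different animals, with tissue taken at the end of the observation after surgery.

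snoRNA are short, stable RNA of the nucleolus that guide the chemical modification of ribosomal RNA. C/D snoRNA, bound by fibrillarin, NOP56, NOP58 and SNU13, guide ribose methylation. H/ACA snoRNA, bound by dyskerin (DKC1), GAR1, NHP2 and NOP10, guide the conversion of uridine to pseudouridine and are as a rule the longer of both classes. Small Cajal body RNA (scaRNA) are related guides for spliceosomal RNA. In mammals most snoRNA are cut out of introns of host genes, many of which encode ribosomal proteins, translation factors or nucleolar proteins, and the regrowing liver is a tissue in which ribosome production is known to rise.

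A symbol was found through the Ensembl identifier for 31 of the 270 members, and these symbols name 13 C/D clusters, 17 H/ACA clusters and 1 scaRNA (SCARNA18). The remaining 239 carry no class name and are given by identifier. Members were between 54 and 276 bases long and were read by 8 to 25 probes. The annotation marks 69 of them as prone to cross-hybridization, so that near-identical copies cannot be told apart there. Probes lying in a snoRNA read the mature RNA and unspliced host RNA alike. Of the 270 members, 77 had a mean RMA signal above 8.18 on the log2 scale, the level that 95% of the 23 background probe sets stay under, and these are called above background below. RMA signal is the background-corrected, quantile-normalized summary of the probes of a cluster.

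In livers of MSC-treated pigs snoRNA signals were lower than in control livers, and no member was called higher. A cluster was called where the unadjusted p of limma was under 0.05 and the log2 difference of the group means (MSC minus control) was at least 0.5 in size, the threshold of the study. By this rule 49 of the 270 members (18.1%) fell and 0 rose, against 1.49% of all tested clusters called lower, 1.24% called higher and 2.73% called in either direction. At an unadjusted p under 0.05 alone there were 78 members, all with a negative difference, where 6.55% of all clusters passed. After Benjamini-Hochberg adjustment over all 25385 clusters limma called 0 members, the lowest adjusted p being 0.272, and 0 clusters of any kind. At a more than 2-fold threshold the methods' t-test called 5 members, all lower, against 0.126% of all clusters, and 0 after adjustment.

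The difference was negative in 198 of the 270 members (73.3%, against 53.3% of all clusters), and its median was −0.22, against −0.01 over all clusters. Single members ranged from −1.96 to 0.40. In 68 members (25.2%) every MSC array lay below every control array, against 5.96% of all clusters. In 3 members (1.11%) every MSC array lay above every control array, against 5.64% of all clusters, and these 3 clusters had values between 1.69 and 2.74, far under the background level. Among the 49 called members the groups did not overlap in 33 and overlapped in 16. The 49 were spread over 15 chromosomes and, in 4 cases, unplaced scaffolds. With 3 animals a group the number called moved with the array left out, from 30 lower without MSC 3 to 74 lower without MSC 2. Leaving out control 1 gave 69, control 2 gave 34, control 3 gave 33 and MSC 1 gave 41. In all, 23 of the 49 were called under each of these 6 omissions.

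H/ACA clusters were lower in all 17 cases, against 53.3% of all tested clusters. By the threshold of the study 8 of the 17 fell (47.1%), against 1.49% of all clusters. The 17 differences ran from −1.26 to −0.16 with a median of −0.48. In 10 of the 17 (58.8%) every MSC array lay below every control array, against 5.96% of all clusters. SNORA2C had the most negative difference of the 17. Its signal was 10.54, 10.72 and 10.49 in control livers and 9.26, 9.61 and 9.11 after MSC. The highest MSC value was thus well below the lowest control value, and the means of 10.58 ± 0.12 and 9.33 ± 0.26 (SD, n = 3) differed by −1.26 (95% CI −1.62 to −0.89), a signal 2.39-fold lower (limma, adjusted p = 0.272). SNORA2C lies on chromosome 5 at chr5:82778923-82779061 (Sscrofa10.2, 139 bases) within KANSL2, a subunit of a histone acetyltransferase complex.

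SNORA68, which in human guides pseudouridylation of the large-subunit ribosomal RNA, lies at chr2:59462764-59462895. The control livers gave nearly the same value, 11.18, 11.16 and 11.20, whereas MSC livers gave 10.03, 10.51 and 9.70. The groups stood apart, with means of 11.18 ± 0.02 and 10.08 ± 0.41 (SD, n = 3). The difference of −1.10 (95% CI −1.56 to −0.64) is a 2.14-fold lower signal (limma, adjusted p = 0.613). SNORA30, at chr3:18141589-18141719 within the gene of the chromatin remodeller SRCAP, gave 9.23, 9.99 and 9.70 in controls and 8.41, 9.12 and 7.996 in MSC livers. Here the highest MSC value came close to the lowest control value, yet no values crossed. The means of 9.64 ± 0.39 and 8.51 ± 0.57 (SD, n = 3) differed by −1.13 (95% CI −1.83 to −0.43), or 2.19-fold (limma, adjusted p = 0.736). SNORA2C, SNORA30 and SNORA68 were called lower whichever array was left out.

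SNORA29 lies at chr1:9392134-9392273 within TCP1, a subunit of the cytosolic chaperonin. It read 8.29, 8.83 and 8.83 in controls and 8.04, 8.06 and 7.20 after MSC. All MSC values were lower, MSC 3 by the most, and the difference was −0.88 (95% CI −1.49 to −0.28). SNORA41, at chr15:121003460-121003592 within EEF1B2, the gene of a translation elongation factor subunit, read 8.60, 8.78 and 8.76 against 7.84, 8.26 and 7.57, without overlap. Its difference was −0.82 (95% CI −1.24 to −0.40). SNORA66, which in human guides modification of the small-subunit ribosomal RNA, lies at chr4:135983238-135983369 within RPL5. The 3 control values of 7.87, 7.88 and 7.81 lay close together and above the MSC values of 7.20, 7.41 and 6.93, a difference of −0.67 (95% CI −1.01 to −0.34), all below the background level. SNORA29, SNORA41 and SNORA66 were likewise called with each array left out in turn.

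SNORA46 and SNORA9 were called only with certain arrays present. SNORA46 lies at chr6:18447847-18447983 within CNOT1, the scaffold of the main deadenylase complex. Its values were 8.69, 9.94 and 9.81 in controls and 7.91, 9.08 and 7.83 in MSC livers. Control 1 lay below MSC 2, so the groups overlapped despite a difference of −1.21 (95% CI −2.18 to −0.24). The call was lost without control 2 (−0.98), control 3 (−1.04), MSC 1 (−1.03) or MSC 3 (−0.98). SNORA9, at chr18:55400247-55400378 within ZMIZ2 and marked for cross-hybridization, read 9.07, 9.12 and 9.65 against 8.47, 8.82 and 8.54. No values crossed, and the difference of −0.67 (95% CI −1.10 to −0.24) shrank to −0.48 and missed the threshold without control 3.

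**Figure D1:**
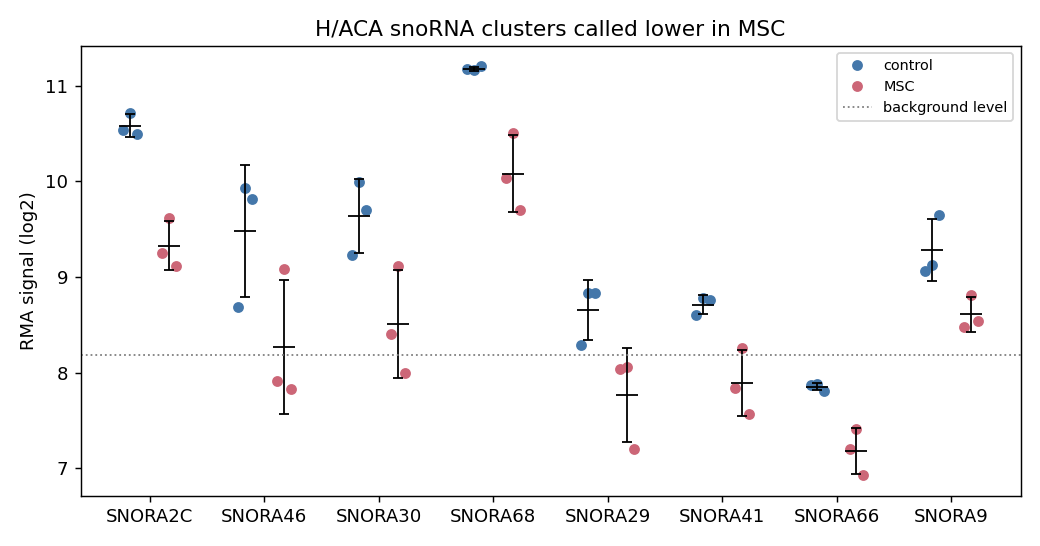
RMA signal (log2, vertical axis) of the 8 H/ACA snoRNA clusters called lower, 1 point per array, with mean and SD (n = 3 a group) as black bars and the background level of 8.18 as a dotted line. In 7 of the 8 all MSC points lie below all control points, and only in SNORA46 does control 1 (8.69) fall below MSC 2 (9.08).

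The other 9 H/ACA clusters did not pass the threshold. In SNORA74, SNORA27 and SNORA8 all MSC values were nevertheless below all control values, with differences of −0.42, −0.38 and −0.35. SNORA74 for instance read 11.48, 11.58 and 11.46 in controls and 11.11, 11.30 and 10.87 in MSC livers. The differences were −0.48 for SNORA52, −0.40 for SNORA12, −0.40 for SNORA2B, −0.33 for SNORA69, −0.21 for SNORA19 and −0.16 for SNORA4. Leaving out 1 array brought several of them past the threshold, namely SNORA52 (−0.76) and SNORA74 (−0.52) without MSC 2, SNORA12 without control 1 (−0.54), SNORA2B without control 3 (−0.52) and SNORA69 without MSC 1 (−0.65).

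Of the 13 C/D clusters limma called 0 in either direction, 0 had an unadjusted p under 0.05, and the methods' t-test called 0. Over all clusters these shares were 2.73%, 6.55% and 0.126%, so that 0 of 13 is near the share of all clusters and is no result about the class. Of the 13, 10 had a negative difference, the median was −0.21, and the range was −0.45 to 0.31. SNORD21, within RPL5 like SNORA66, was the only one whose groups did not overlap. It read 9.85, 9.65 and 9.68 in controls and 9.64, 9.21 and 9.53 in MSC livers, with MSC 1 just below control 2, a difference of −0.27. SNORD45B, within RABGGTB and among the clusters of highest signal, read 12.43, 12.35 and 12.41 against 12.23, 12.53 and 12.34. MSC 2 was the highest of these 6 values, and the difference of −0.03 had a 95% CI of −0.31 to 0.26.

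SNORD35A belongs to the RPL13A set of C/D snoRNA, which in hamster cells is known for a part in the response to lipid overload. It read 9.43, 9.97 and 9.76 in controls and 9.46, 9.75 and 9.42 in MSC livers. The groups overlapped, and the difference was −0.18. The most negative C/D difference was that of SNORD17 (−0.45, 95% CI −1.29 to 0.38), which passed the threshold only without MSC 2 (−0.91). The remaining C/D differences were −0.30 and −0.23 for the 2 clusters named SNORD9, −0.25 for SNORD45A, −0.22 for SNORD5, −0.21 for SNORD83, −0.10 for SNORD19, 0.03 for SNORD7, 0.18 for SNORD81 and 0.31 for SNORD1C. Both SNORD9 clusters have the same Ensembl identifier and position and are marked for cross-hybridization. The same gene is thus counted as 2 of the 13 C/D clusters and as 2 of the 10 negative ones. SCARNA18, the one scaRNA, differed by −0.15. Whether H/ACA and C/D clusters differ from each other in their response was not tested, since the clusters of a class share the same 6 arrays.

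Of the 8 members with the highest mean signal 1 was called, ENSSSCG00000028335, described further on. A cluster within RPL13A (ENSSSCG00000022658) read 13.40, 13.75 and 13.70 in controls and 13.44, 13.65 and 13.43 after MSC, overlapping values with a difference of −0.11. A pair within EIF4A1, the gene of a translation initiation helicase, lay lower on all MSC arrays by small amounts, −0.11 for ENSSSCG00000025639 and −0.32 for ENSSSCG00000027366. ENSSSCG00000019309 in EIF4A2 differed by −0.23, and SNORD45B and SNORD83, given above, are also among these 8. By mean signal, 2 of the 95 members under 5 were called lower (median difference 0.03), 3 of 52 between 5 and 7 (median −0.21), 26 of 73 between 7 and 9 (median −0.47), 16 of 37 between 9 and 11 (median −0.45) and 2 of 13 from 11 up (median −0.23). Over all tested clusters the share called lower was similar at every level, between 1.32% and 1.78%.

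Because that limit was set on the mean of all 6 arrays, 16 of the 77 members above background passed it only through the control group, where they were higher, and 0 only through the MSC group. The counts over the 77 are therefore a description and no separate evidence. Of the 77, 31 fell (40.3%, against 1.72% of all clusters above background), 9 of them among those 16, and 74 had a negative difference. Of the 61 members with both group means above the limit 22 fell, 58 were negative, and the median was −0.39. Of all 5275 clusters with both group means above it, 71 were called lower and 1862 were negative, with a median of 0.06. Over the 77 the median difference was −0.45, where that of all clusters above background was 0.07. In 33 of the 77 (42.9%) every MSC array lay below every control array, against 3.09% of all clusters above background. In 0 of the 77 every MSC array lay above every control array, against 9.33% of all clusters above background. Of the 193 members not above background 18 fell (9.33%, against 1.42% of all clusters not above it), with a median of −0.10 over the 193. For H/ACA clusters above background 7 of 11 fell (median −0.82), but SNORA29 and SNORA41 were above it only through the control group, and of the 9 above it in both groups 5 fell (median −0.67). For C/D clusters 0 of 7 fell (median −0.22), all 7 above it in both groups.

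Because most members carry no class name, they were also divided by length, at 120 bases, a limit chosen after the values were seen. H/ACA snoRNA are usually longer than this and C/D snoRNA usually shorter, but length alone assigns no class. Of the 159 members of at least 120 bases 39 fell (24.5%, median −0.28), and of the 111 shorter ones 10 fell (9.01%, median −0.11). Over all tested clusters, of any length, 1.49% were called lower. With both group means above background the long members were lower in all 36 cases, 19 of them called (median −0.52), and the short ones in 22 of 25 cases, 3 of them called (median −0.22). Of all 5275 clusters with both group means above background, of any length, 71 were called lower and 1862 were negative (median 0.06). In finer steps, 7 of 49 members from 50 to under 80 bases fell, 2 of 37 up to 100, 1 of 25 up to 120, 6 of 40 up to 130, 23 of 86 up to 140 and 10 of 33 at 140 bases or more. The difference between long and short members was not tested.

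**Figure D2:**
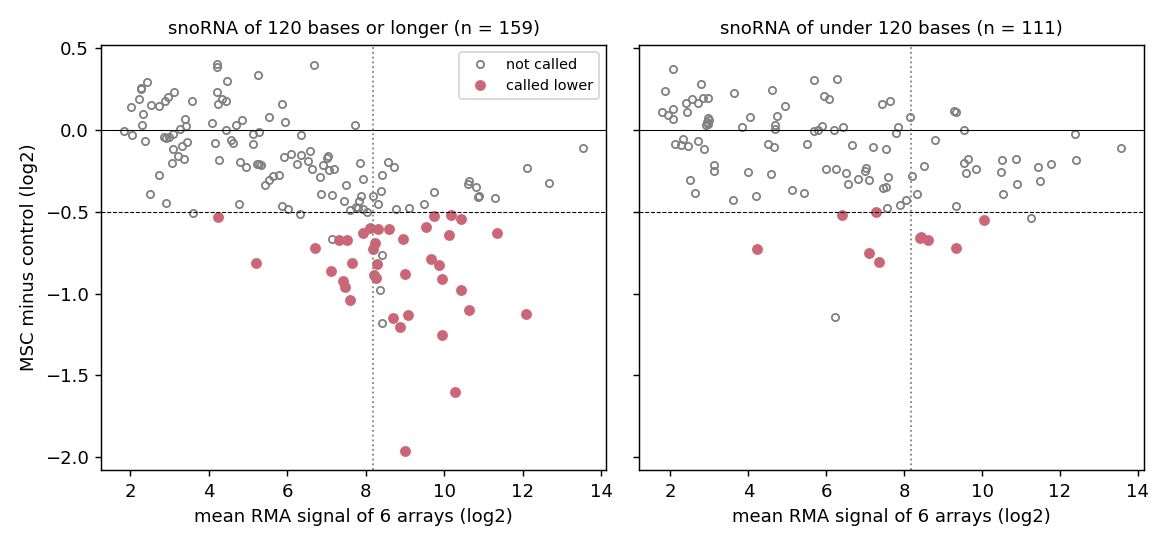
Log2 difference, MSC minus control (vertical axis), against the mean RMA signal of the 6 arrays (log2, horizontal axis) for 159 long and 111 short snoRNA clusters, 1 point per cluster, with called clusters filled. The dashed line is the threshold of −0.5 and the dotted line the background level of 8.18; 39 long and 10 short clusters are filled, all on the lower side, mostly between signals of 7 and 11.

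The largest differences belonged to members without a symbol, described here after their values were seen. ENSSSCG00000023855 (chr12:35845117-35845331, 215 bases) read 9.83, 10.03 and 10.06 in controls and 8.87, 7.71 and 7.47 in MSC livers. The groups were far apart, 9.98 ± 0.12 against 8.01 ± 0.75 (SD, n = 3), and the difference of −1.96 (95% CI −2.73 to −1.19) is a 3.89-fold lower signal (limma, adjusted p = 0.613). ENSSSCG00000028335 (chr12:35722003-35722217), also of 215 bases, read 12.61, 12.76 and 12.58 against 12.02, 11.81 and 10.73, a difference of −1.13 (95% CI −1.84 to −0.41). MSC 3 was the lowest array in both clusters, and without it the second difference was −0.73, still called. Both clusters are marked for cross-hybridization and may in part read the same RNA. Another cluster of 215 bases nearby, ENSSSCG00000026740 (chr12:35725695-35725909), is not marked so. It read 9.74, 7.85 and 9.47 in controls and 7.14, 9.10 and 7.27 in MSC livers, with overlap. Its difference of −1.18 (95% CI −2.64 to 0.27) was not called.

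ENSSSCG00000019284 (chr4:102853983-102854119) varied widely within both groups, with 10.01, 11.75 and 11.48 in controls and 9.50, 10.69 and 8.26 after MSC. Control 1 lay below MSC 2, and the difference of −1.60 (95% CI −3.09 to −0.11) lost its call without control 2 (−1.26), control 3 (−1.40), MSC 1 (−1.61) or MSC 3 (−0.99). ENSSSCG00000020168, a neighbour at chr4:102848301-102848430, was more even, at 7.85, 8.04 and 8.01 against 6.98, 7.33 and 6.72. All MSC values were lower, and the difference was −0.96 (95% CI −1.35 to −0.57). ENSSSCG00000025050 (chr3:17100360-17100501), within the chaperonin gene CCT6A, read 7.73, 7.91 and 8.03 against 6.96, 6.93 and 7.01, so that the MSC values were close together and well under the controls. It differed by −0.92 (95% CI −1.21 to −0.64; limma, adjusted p = 0.272) and lies below the background level. The annotation marks it for cross-hybridization, and another snoRNA row had identical values on all 6 arrays. Its signal can therefore not be assigned to this position alone. ENSSSCG00000018243 (chr14:60219407-60219541), within TOMM20, a receptor of mitochondrial protein import, read 11.69, 11.64 and 11.63 against 10.88, 11.26 and 10.94, without overlap, a difference of −0.63 (95% CI −0.94 to −0.32).

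The genes that hold the snoRNA had differences near 0 at the median. By position and strand 94 members lay within the span of 64 named genes that have clusters of their own. Of these 94, 24 fell (25.5%, against 1.49% of all clusters). The median difference was −0.33 for the members and 0.02 for the genes. The member was the more negative of the pair in 82 of 94 pairs. In the 24 pairs with a called member it was so in all, which the call itself fixes. A called member lies at −0.5 or lower, and no host gene measured lay under −0.37. For these 24, chosen by their low values, the median was −0.82, and the median of their genes 0.03. Both are a description and no separate evidence. The 95% interval of the member lay wholly below that of its gene in 14 of the 94 pairs, 13 of them called, and wholly above it in 0. Across the 94 pairs, which share the 6 arrays and in part the gene, the differences of member and gene had a Pearson r of −0.07 and a Spearman rho of −0.09.

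Together with a list of known host genes, 79 host gene clusters were measured, 54 above background. limma called 0 of the 79, where the 2.73% of all clusters called in either direction leaves few calls to be found among 79, so the 0 is no result about host genes. Of the 79, 0 had an unadjusted p under 0.05, and their differences ran from −0.37 to 0.45. By the methods' t-test 1 had an unadjusted p under 0.05 and 0 passed the fold threshold. The smallest limma p belonged to RPL23A (−0.31, 95% CI −0.62 to 0.00), NDUFAF6 (0.45), CHD3 (−0.36) and NCL (−0.23), the last being nucleolin, an abundant protein of the nucleolus. Without control 1 the ribosomal protein genes RPL13A (−0.55) and RPL10 (−0.60) and the chromatin helicase CHD3 (−0.56) were called lower, and NDUFAF6 (0.62) higher.

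Members of the same gene often had unequal differences, though no member was tested against another. Described here are 15 genes with more than 1 member, 40 members in all. In 9 of them a called member stood beside at least 1 that was not called, in 0 were all members called, and in 6 none was. In KANSL2 (gene −0.16, 95% CI −0.43 to 0.10) SNORA2C fell by 1.26 on the log2 scale. Its neighbour ENSSSCG00000019918 read 7.63, 8.53 and 8.25 in controls and 7.33, 7.72 and 6.23 in MSC livers, a difference of −1.04. Control 1 lay below MSC 2, and the call was lost without control 2 (−0.84), control 3 (−0.98) or MSC 3 (−0.61). SNORA2B, the third member in this gene, read 7.53, 7.39 and 7.08 against 6.96, 7.14 and 6.72, with overlap.

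NOP56, itself the gene of a C/D core protein, holds ENSSSCG00000026057 of 131 bases, which read 10.43, 10.37 and 10.41 in controls and 9.11, 9.92 and 9.43 after MSC. The groups were clearly apart, and the difference was −0.91 (95% CI −1.37 to −0.45), whereas the NOP56 cluster differed by 0.09. The shorter members in NOP56, ENSSSCG00000022505 of 72 bases and ENSSSCG00000021234 of 86 bases, differed by −0.21 and 0.11 and were not called. In TCP1 (gene 0.07) SNORA29 was called and ENSSSCG00000018605 (−0.20) was not. In RPL5 (gene −0.05) SNORA66 was called and SNORD21 was not. In CNOT1 (gene 0.09) ENSSSCG00000018522 (−0.48, 95% CI −0.87 to −0.09) was not called beside SNORA46. All MSC values of ENSSSCG00000018522 lay below all its control values, and it missed the fold threshold only. Its interval overlapped that of SNORA46 (−2.18 to −0.24).

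Short members were the called ones in some genes. In RPL4 (gene −0.01) ENSSSCG00000019809 of 72 bases read 8.88, 9.01 and 8.92 against 8.25, 8.12 and 8.43, a difference of −0.67 without overlap. The other 3 members in RPL4, of 98, 72 and 70 bases and thus short as well, were not called. In EIF4A2 (gene −0.03) 1 of 5 members was called, ENSSSCG00000018746 of 69 bases (−0.55), and it missed the threshold without MSC 2 (−0.48). ENSSSCG00000020580 in the same gene (−0.66) was not called, but was without control 1 (−1.02).

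The called members in RPS12 and GNL3 were close to the threshold. ENSSSCG00000018972 in RPS12 (gene 0.03) differed by −0.53 and lost its call without control 2 (−0.50), control 3 (−0.47), MSC 1 (−0.42) or MSC 3 (−0.44), and after centring of the arrays on their medians (−0.49). ENSSSCG00000018612 in GNL3, the gene of nucleostemin (gene −0.11), differed by −0.50 and lost its call without control 2 (−0.46) or MSC 3 (−0.36) and after that centring (−0.47).

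**Figure D3:**
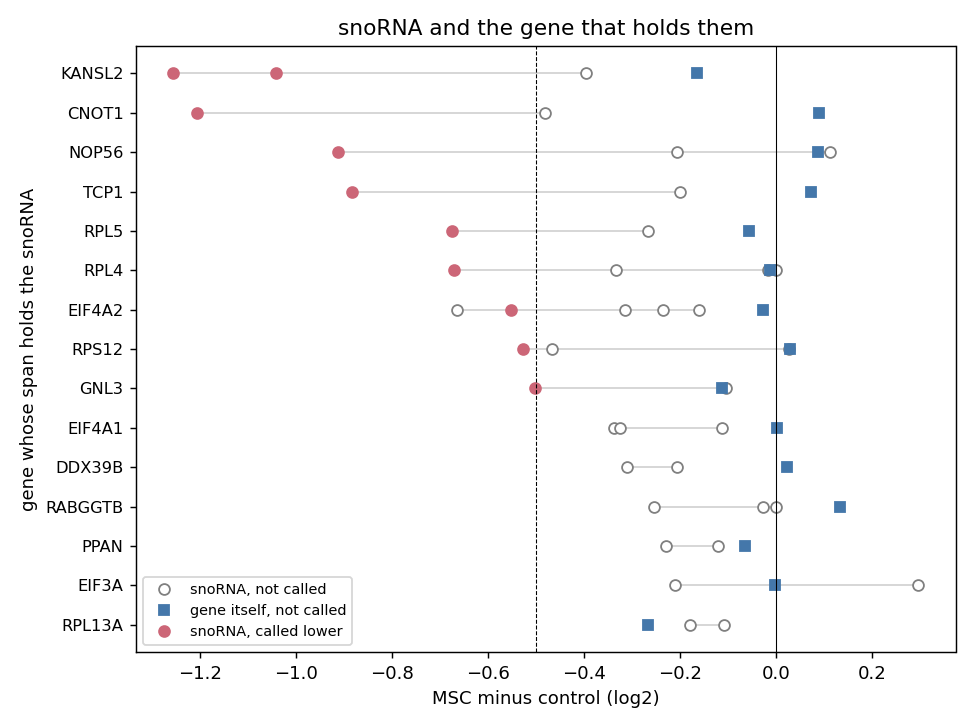
Log2 difference, MSC minus control (horizontal axis), of 40 snoRNA members (circles, filled where called lower) and of the 15 genes that hold at least 2 of them (squares), 1 gene a row, with the threshold of −0.5 dashed. The squares lie between −0.27 and 0.13, and 9 rows hold both filled and open circles.

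Proteins of the snoRNA particles and their assembly were measured by 19 of 31 listed genes, 12 of them above background. limma called 0 of the 19, near the 2.73% of all clusters, 1 had an unadjusted p under 0.05, and the methods' t-test called 0, with 2 at an unadjusted p under 0.05. Their differences ran from −0.21 to 0.35 with a median of 0.05, and 6 were negative. SHQ1, an assembly factor of H/ACA particles, read 7.39, 7.28 and 7.39 in controls and 7.84, 7.52 and 7.76 after MSC. All MSC values were the higher ones, with a difference of 0.35 (95% CI 0.05 to 0.65; limma, adjusted p = 0.736), which is under the fold threshold. Of the H/ACA core proteins, DKC1 read 9.29, 9.07 and 9.17 against 9.07, 9.02 and 8.92, a difference of −0.18 (95% CI −0.45 to 0.10), with all MSC values below the controls. NOP10 differed by 0.19, NHP2 by −0.06 and GAR1 by −0.02.

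Within a group the arrays differed in snoRNA signal. Relative to the control mean, the median of the members above background was −0.21 in control 1, 0.13 in control 2 and 0.04 in control 3, and −0.51, −0.22 and −0.64 in MSC 1, 2 and 3. For protein-coding clusters above background the medians of the 6 arrays lay between −0.05 and 0.10, and the medians over all clusters between 6.51 and 6.59. MSC 3 was the lowest array in 31 of the 49 called members, MSC 1 in 13 and MSC 2 in 5. Control 1 was the lowest control in 39 of the 49. Control 1 and MSC 2 were thus the arrays of each group nearest to the other group.

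Of the small nuclear RNA (snRNA), the short RNA of the spliceosome, the 8 clusters above background moved with the members by array. Of 551 distinct snRNA clusters 43 were called lower (7.80%) and 9 higher (1.63%), against 1.49% and 1.24% of all clusters. Their median was −0.08. By array the medians over the 551 were −0.004, 0.02 and −0.02 in controls and −0.15, −0.03 and −0.05 after MSC. Here MSC 1 was the lowest array, and control 1 did not stand below the other controls. Of the 8 above background 5 were called lower, against 1.72% of all clusters above background. All 8 were negative (median −0.69), against 35.4% of all clusters above background. In 2 of these 5 only the control mean lay above background, and of the 6 clusters with both means above it 3 were called lower (median −0.49). Over all clusters with both means above background 71 of 5275 were called lower. Without clusters prone to cross-hybridization 4 snRNA clusters were called lower in all. The medians by array of the 8 were −0.16, 0.05 and 0.08 in controls and −0.76, −0.39 and −0.74 after MSC. ENSSSCG00000022239, with the most negative difference of these 8, read 10.06, 10.40 and 10.01 in controls and 8.40, 8.91 and 8.96 after MSC, without overlap, a difference of −1.40. Among 185 miRNA clusters 4 were called lower (2.16%) and 1 higher (0.54%), near the shares of all clusters. Their median was −0.04, but only 2 lay above background. The RNA was total RNA cleaned on silica columns. How much RNA of snoRNA length these columns recovered in each sample was not measured, and its part in the differences was not tested.

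**Figure D4:**
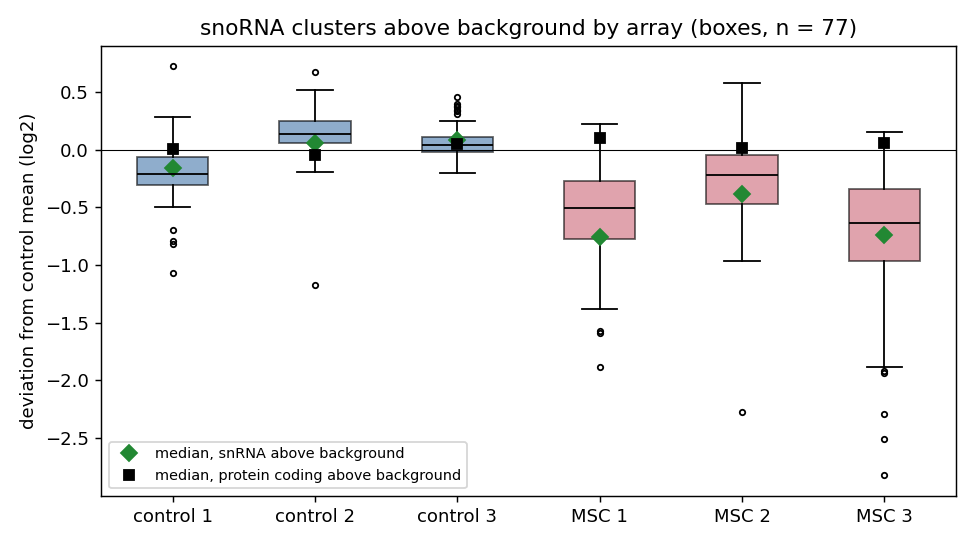
Deviation from the control mean (log2, vertical axis) on each array for the 77 snoRNA clusters above background, with boxes for the quartiles, a line for the median, whiskers to the last point within 1.5 times the box and circles beyond. Diamonds (8 snRNA clusters) lie with the boxes, at −0.76 to −0.39 in MSC livers, whereas squares (protein-coding clusters) stay between −0.05 and 0.10 on all arrays.

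Markers of liver cell types were measured on the same arrays. In bulk tissue fewer cells of a type and less RNA per cell cannot be told apart. All 8 measured of 10 hepatocyte markers lay above background, with mean signals of 11.76 to 12.29 in controls and 12.14 to 12.28 after MSC, and HNF4A was called higher. Endothelial markers (5 of 6 measured) ran from 8.42 to 9.27 in controls and 8.27 to 8.75 after MSC, and VWF and FLT1 were called lower. Stellate cell and fibroblast markers (6 of 6) ran from 9.28 to 10.27 and 9.24 to 9.54, with RGS5 called lower. Bile duct markers (4 of 5) ran from 7.61 to 8.31 and 7.13 to 7.73, with CFTR and EPCAM called lower and none of the 4 above background. The 3 measured neutrophil markers ran from 6.17 to 6.33 and 5.49 to 6.13, below background, with S100A8 called lower. The 2 erythroid markers ran from 7.52 to 8.93 and 6.75 to 7.78, and were not called. Of the macrophage markers (3 of 5, 7.44 to 8.21 and 8.11 to 8.32) MS4A7, below background, was called higher. MARCO, also below background, differed by −0.28, with every MSC array below every control array. CD68, which lay above background, differed by 0.11 with overlap. Of the T and NK cell markers (5 of 5, 6.07 to 7.11 and 6.63 to 6.80) and the dividing cell markers (3 of 5, 7.81 to 8.08 and 7.84 to 8.20) none was called. The part of any cell type in the snoRNA differences was not tested.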

How the data were processed

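Liver RNA of 3 control and 3 MSC-treated pigs was measured on porcine whole-transcript Affymetrix arrays. The deposited values are log2 signals that the authors computed by RMA in Affymetrix Expression Console 1.4. They were used unchanged for 25385 clusters (19124 main, 6261 rescue). Annotation came from a deposited workbook, whose 6 signal columns could not be matched to the labels and stayed unused. Symbols were taken through Ensembl identifiers, and coordinates (Sscrofa10.2) from the Ensembl descriptions. Host genes are genes whose annotated span on the same strand holds a member, in the coordinates of the array annotation, whose build the sources used here leave unstated.

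limma 3.58.1 in R 4.3.3 (lmFit, eBayes) was fitted to all clusters, with 4 residual and 3.80 prior degrees of freedom, Benjamini-Hochberg adjustment over all of them, and tested on simulated data. p-values measure the spread between 3 animals a group, and this number limits the precision. The methods' t-test was two-sided with equal variances. Alternatives were leaving out each array, a replicate block, scaling, background, cross-hybridization and array weights.

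Named were the called members with the most negative differences whose groups did not overlap, the 8 members of highest signal, known families, members sharing a host gene, and up to 5 host genes and proteins of smallest p. Others are said to be chosen after their values were seen. Members and lists were chosen with earlier results of these data known. Results of 2 host genes are not reported here.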

Additional observations from a re-analysis of the deposited data

How the results depend on the processing

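With 1 array left out, the members called numbered 31 (without MSC 3) to 75 (without MSC 2), those called lower 30 to 74, and those called higher 0 to 1. A member was called higher without control 1 (ENSSSCG00000018541), MSC 1 (ENSSSCG00000020625), MSC 2 (ENSSSCG00000018775) or MSC 3 (ENSSSCG00000023073), a different one each time. C/D clusters called lower numbered 0 to 1 (1 without MSC 2, SNORD17) and host genes called lower 0 to 3 (3 without control 1). H/ACA clusters called lower stayed between 7 and 11. Among clusters above background only, 30 members were called, all lower, with a median of −0.45, beside 5 snRNA and 0 miRNA clusters; fewer clusters entered this fit. Without clusters prone to cross-hybridization 34 members, 4 snRNA and 2 miRNA clusters were called lower. Array weights gave 69 members, 7 miRNA clusters and 2 host genes lower (RPL10 and CHD3). The methods' t-test called 5 members at more than 2-fold and 0 after adjustment, and limma 0 at an adjusted p under 0.05. Centring the arrays on their medians gave 43 members, all among the 49, and a repeated quantile normalization 54. Except where given, the cause of a change was not tested. None of the 49 called members changed direction under the array omissions, block, scalings, filters or weights, whereas differences near 0 that were not called could change sign with 1 array (SNORD45B 0.04 without MSC 1, SNORD7 −0.09 without MSC 3). The replicate numbers were not taken to pair the animals, since the methods describe different pigs randomized into groups. Deviations of same-numbered arrays correlated at −0.02, 0.25 and −0.08, and those of arrays with unlike numbers at −0.18 to 0.20. With 3 arrays a group these values cannot decide whether same-numbered arrays share anything. A fit with the replicate block called 52 members, 48 of them among the 49, and 8 H/ACA clusters. Most members (193 of 270) lay below the background level, which limits what their values can show. The same holds for most of the tested clusters (19758 of 25385), so this is no trait of the members.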
